A study of Mus musculus with 2 samples.

Results

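Monocytes of the mandibular first molar and the tissue around it were examined by single-cell RNA sequencing in mice at PN15.5 (PN, postnatal day). The cells were chosen by measured values, as those with at least 4 UMIs (unique molecular identifiers, each counting 1 captured transcript) summed over Ly6c2, Ccr2, F13a1 and Ms4a6c. They also had fewer than 6 UMIs over C1qa, C1qb and C1qc, fewer than 10 over the MHC class II genes H2-Aa, H2-Ab1 and H2-Eb1, and fewer than 10 over the azurophil granule genes Mpo, Elane, Ctsg and Prtn3. S100a8 and S100a9 together had to stay under 5%, and Col1a1 at or under 2%, of a cell's UMIs. This gave 117 monocytes out of 17780 cells that had 200 or more genes and no more than 20% of UMIs from mitochondrial genes, from 19015 deposited cells.

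C57BL/6J mice received clodronate liposomes (Lipo-Clo) by intraperitoneal injection, 40 μg/g each time, first at PN3.5 and last at PN12.5, with doses at PN6.5 and PN9.5 between them, or an equal volume of vehicle liposomes (Lipo-PBS) on the same days. Each condition is 1 library. The Lipo-Clo library holds 9362 cells with 31053404 UMIs in total, and that of Lipo-PBS 9653 cells with 30537834 UMIs, and the number of mice pooled in each is not given in the sources used here. With 1 library per condition there is no replicate check and no test, so every interval below is an exact 95% interval that covers counting error only. The libraries shared 30 cell barcodes, none of them among the monocytes.

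Classical monocytes are made in the bone marrow, carry Ly6C on their surface and leave the marrow through the chemokine receptor CCR2. In tissues they respond to injury and infection and can mature into macrophages, losing Ly6C on the way. Clodronate liposomes kill phagocytes that engulf them, which include tissue macrophages and circulating monocytes, and the marrow goes on to release new monocytes.

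The genes that chose the cells are surface and secreted proteins of this lineage, and many promoters of the lineage are bound by PU.1, the factor that Spi1 encodes. The 150 bases before the start of 3 genes are printed from RefSeq (GRCm38.p6) with the PU.1 core GAGGAA, or its reverse complement TTCCTC, in capitals. Ly6c2 and Ly6c1 are neighbouring, closely related genes whose reads can be mistaken for each other, so both are shown, beside F13a1.
Ly6c2, chr15:75111972-75112121, minus strand: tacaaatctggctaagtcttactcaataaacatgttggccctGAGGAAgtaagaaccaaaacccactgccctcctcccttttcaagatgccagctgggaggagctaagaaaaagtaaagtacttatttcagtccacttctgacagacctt
Ly6c1, chr15:75048838-75048987, minus strand: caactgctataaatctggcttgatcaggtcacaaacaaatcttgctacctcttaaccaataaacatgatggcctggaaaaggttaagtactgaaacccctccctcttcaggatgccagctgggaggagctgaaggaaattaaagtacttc
F13a1, chr13:37050245-37050394, minus strand: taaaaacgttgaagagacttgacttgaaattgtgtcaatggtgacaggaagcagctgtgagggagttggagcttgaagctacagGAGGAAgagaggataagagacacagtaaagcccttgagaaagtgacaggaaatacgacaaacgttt
The letters begin 108 bases before the start of Ly6c2 and 66 before that of F13a1, and they are not in these windows of Ly6c1, Ccr2 or Ms4a6c. Of 32851 promoters in the table, 14.5% hold them on either strand in the same window. RefSeq lists 2 promoters each for Ly6c2, Ly6c1 and F13a1, and the first was used.

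The 4 genes of the rule had similar summed levels in both libraries, given here as CPM, a gene's share of all UMIs of the monocytes scaled to a sum of 1000000. They chose the cells, so the values are a description. Ly6c2, the Ly6C antigen, had a median of 3 UMIs per cell in each library, with 0 to 17 in Lipo-Clo and 0 to 11 in Lipo-PBS, and summed levels of 818 and 889 CPM. Ccr2, the receptor for CCL2, had medians of 2 and 1 UMIs and 382 and 454 CPM. F13a1, the A chain of coagulation factor XIII, had a median of 1 UMI in each and 344 and 415 CPM. Ms4a6c, a membrane protein of the MS4A family, had medians of 3 and 2 UMIs and 760 and 676 CPM. The cells of the 2 libraries overlapped for each gene. All 4 genes were seen in 35 of 89 Lipo-Clo cells and 11 of 28 Lipo-PBS cells.

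**Figure D1:**
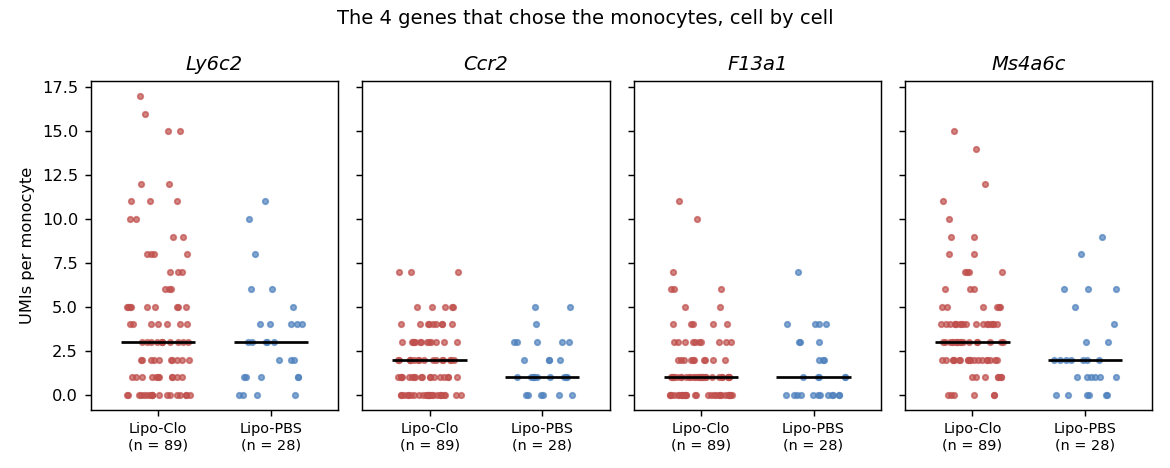
UMIs per monocyte (y axis) of the 4 genes that chose the cells, 1 point per cell, in Lipo-Clo (n = 89) and Lipo-PBS (n = 28), with the median as a line. The cells of both libraries overlap for every gene, and the medians lie between 1 and 3 UMIs.

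Among the filtered cells, 328 of the Lipo-Clo library and 132 of the other had 4 or more UMIs over the 4 genes, and the other limits removed more than either library kept. High S100a8 and S100a9 was met by 112 and 9 of these cells, high azurophil granule transcripts by 86 and 10, high C1q by 41 and 66, high MHC class II by 44 and 24 and high Col1a1 by 14 and 11, and a cell could meet several. Just inside the threshold, 9 Lipo-Clo and 3 Lipo-PBS cells had exactly 4 UMIs. Just outside it, with the other limits met, 8 and 15 cells had exactly 3.

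Outside the rule, the cells carried further transcripts of the monocyte lineage. Lyz2, the lysozyme of myeloid cells, was seen in 85 of 89 Lipo-Clo and 19 of 28 Lipo-PBS cells, and Plac8 in 81 and 26. In the Col1a1-high cells of the same libraries (3014 and 3213 cells with Col1a1 above 2% of UMIs, median 3494.5 and 3422 UMIs), which should lack both genes, Lyz2 was seen in 7.70% and 7.91% and Plac8 in 7.66% and 5.35%, against median depths of 4307 and 3423 UMIs in the monocytes. Other myeloid groups carried both genes too. Lyz2 was seen in 88.6% and 92.1% of C1q-high cells (6 or more C1q UMIs). In cells with 5% or more of S100a8 and S100a9 and fewer than 10 azurophil granule UMIs it was seen in 83.4% and 80.9%. In Lipo-PBS both groups exceeded the 67.9% of the monocytes. Plac8 was seen in 98.3% and 88.9% of the deeper cells with 10 or more azurophil granule UMIs. Csf1r, the receptor for the macrophage growth factor CSF1, was low at 85.0 and 58.0 CPM, against 467 and 490 CPM in the C1q-high cells. Ly6c1 stood at 3 UMIs in Lipo-Clo and 6 in Lipo-PBS, and C1qa at 1 and 0 UMIs by the rule's own limit. Of the 12 nonclassical monocyte markers, Cd300e and Treml4 were at 0 in both libraries and 2 were in use. That list summed to 398 and 618 CPM, led by Nr4a1.

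Transcripts of other lineages were also present, and unequally. At least 3 UMIs over T or NK, B or plasma, or plasmacytoid dendritic cell genes were seen in 4 of 89 Lipo-Clo cells but 9 of 28 Lipo-PBS cells, and in 2 and 4 cells with Ebf1 not counted. Ebf1, a B cell factor, was also present in the Col1a1-high cells, at 155 and 283 CPM against 35.8 and 280.2 CPM in the monocytes. The 8 T or NK genes summed to 38.0 and 357 CPM, with Cd3g the highest and Ncr1 and Klrb1c at 0, and the B or plasma genes to 55.9 and 348 CPM, led by Ebf1, with Jchain and Mzb1 at 0. The 4 plasmacytoid genes summed to 85.0 and 232 CPM, led by Cox6a2. Mesenchymal transcripts above 1% of UMIs marked 15 and 6 cells (list sums 6976 and 6454 CPM, led by Col1a1), haemoglobin above 5% marked 9 and 3, 3 or more epithelial UMIs marked 8 and 3 (2677 and 1024 CPM, led by Odam), and 3 or more endothelial UMIs marked 4 and 0. A cell could carry several of these marks. Altogether 53 Lipo-Clo and 13 Lipo-PBS cells carried none of these marks. Mast cell, megakaryocyte, osteoclast and endothelial lists had no gene in use. The main results are given below with and without marked cells where that changes them.

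**Figure D2:**
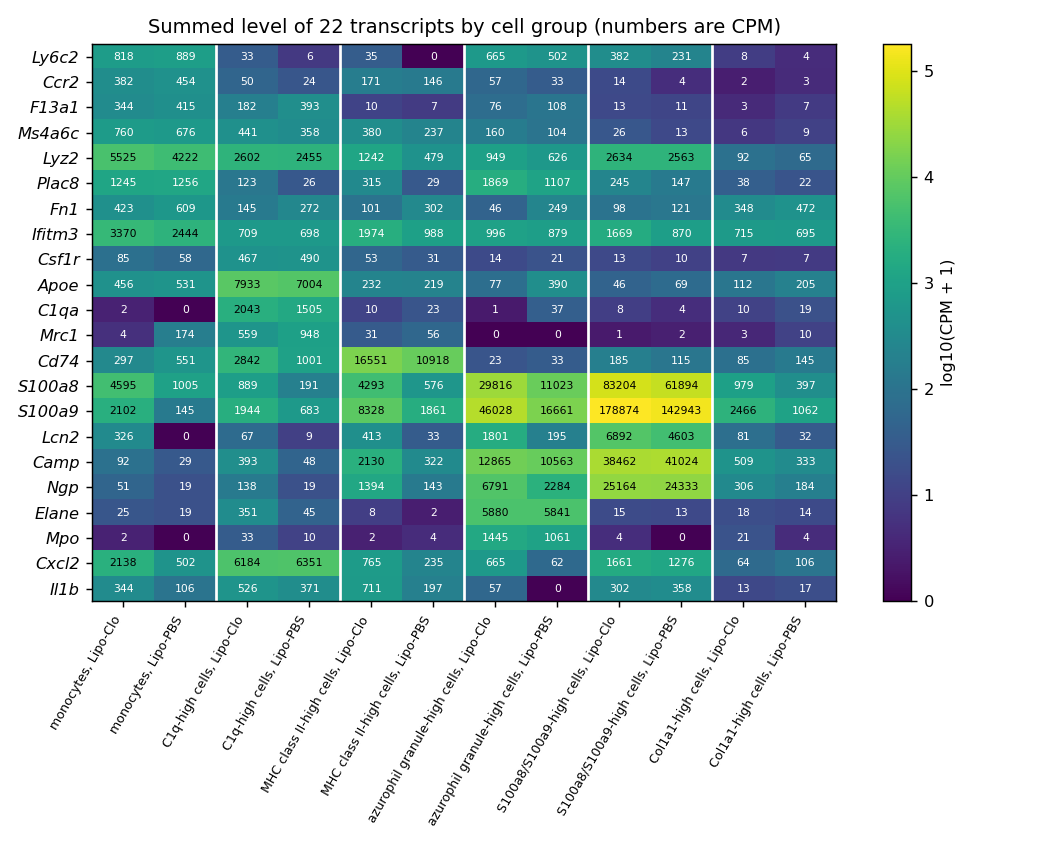
Summed level in CPM (printed numbers; colour is log10 of CPM plus 1) of 22 transcripts in monocytes and in 5 other cell groups of each library. Lyz2 is highest in the monocytes of both libraries, as are Ccr2 and Ms4a6c, by which these cells were chosen, while Plac8 is higher in the Lipo-Clo azurophil granule-high cells (1869 against 1245 CPM). Apoe, C1qa and Csf1r are high in the C1q-high cells (C1qa by their definition), and Camp and Ngp in the azurophil granule-high and S100a8/S100a9-high cells.

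Monocytes made up 1.00% of filtered Lipo-Clo cells (89 of 8886, exact Clopper-Pearson interval 0.805% to 1.23%) and 0.315% of filtered Lipo-PBS cells (28 of 8894, 0.209% to 0.455%). The share was 3.18-fold higher in Lipo-Clo (interval 2.06 to 5.05). Without the lymphoid or plasmacytoid-marked cells it was 4.48-fold higher (2.70 to 7.80), and with only the unmarked cells 4.08-fold higher (2.19 to 8.16). The size depended on the denominator. Among cells with a UMI of Ptprc, the pan-leukocyte antigen CD45, monocytes were 40 of 751 (5.33%) after clodronate and 17 of 591 (2.88%) after vehicle, a ratio of 1.85 (1.03 to 3.48).

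Other marrow-type cells were also more frequent in Lipo-Clo. Cells with 10 or more azurophil granule UMIs, the granule contents of granulocyte and monocyte precursors, were 1.29% against 0.304% of filtered cells (115 and 27 cells, 4.26-fold, 2.78 to 6.75). Cells with 5% or more of S100a8 and S100a9 and no such granule excess, mostly of neutrophil type, were 578 of 8886 against 204 of 8894 cells (2.84-fold, 2.41 to 3.34). The C1q-high cells, which carried macrophage transcripts, were less frequent, at 1.98% against 2.55% (176 and 227 cells, 0.776-fold, 0.634 to 0.949). MHC class II-high cells were 1.36% and 1.56% (0.871-fold, 0.677 to 1.12). Over these 5 groups together, monocytes were 8.32% of 1070 Lipo-Clo cells and 4.50% of 622 Lipo-PBS cells (1.85-fold, 1.197 to 2.94). More monocytes in the tissue and more marrow taken along at dissection cannot be told apart with these libraries.

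**Figure D3:**
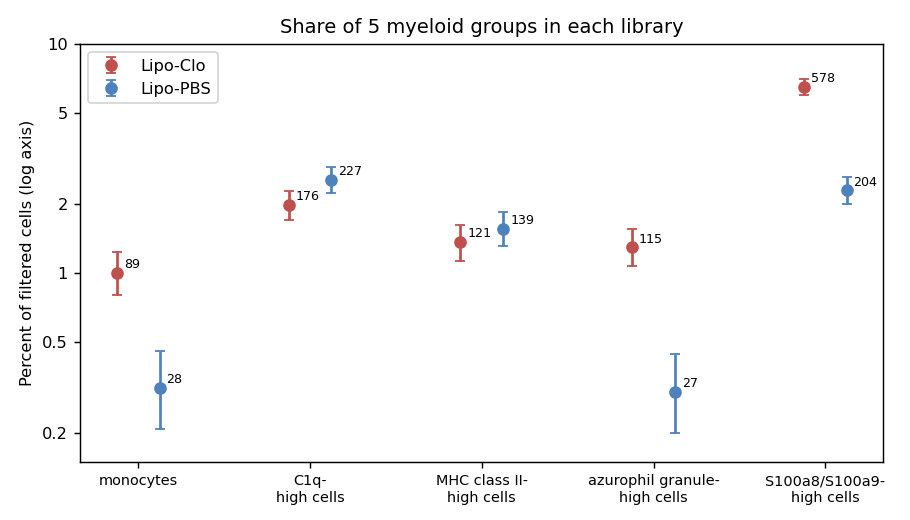
Percent of filtered cells (y axis, log scale) in 5 myeloid groups of Lipo-Clo and Lipo-PBS, with exact 95% intervals and the number of cells printed. Monocytes, azurophil granule-high cells and S100a8/S100a9-high cells lie 2.84-fold to 4.26-fold higher in Lipo-Clo, and C1q-high cells 0.776-fold.

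Monocytes of the 2 libraries differed in depth and in mitochondrial RNA. The summed depth was 447223 UMIs in Lipo-Clo and 103506 in Lipo-PBS, so Lipo-PBS sets the precision. The median number of genes per cell was 1570 (1453 to 1753) after clodronate and 1445.5 (1087 to 1861) after vehicle. With each cell thinned to 1500 UMIs, the order turned, with 766 genes (752 to 782) in the 86 Lipo-Clo cells and 850 (827 to 880) in the 27 Lipo-PBS cells that were deep enough. Mitochondrial UMIs were 0.206% of the total in Lipo-Clo and 1.37% in Lipo-PBS. The whole libraries differed alike, at 0.358% and 1.65%, and the C1q-high cells at 0.376% and 1.76%.

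Of 3284 genes in use (at least 20 UMIs over both libraries and a UMI in at least 10% of the monocytes of either), 303 (9.23%) were at least 2-fold higher in Lipo-Clo and 417 (12.7%) at least 2-fold lower. The ratios have a median of -0.04 on the log2 scale, which is used for every ratio below (Lipo-Clo over Lipo-PBS). Scaling mattered for the balance. Under trimmed mean (TMM) factors the median of all genes was 0.41, 658 genes were higher and 166 lower, so that 79.9% of the genes past 2-fold were higher against 42.1%. All 10 mitochondrial genes in use were lower, with a median of -2.74, and nuclear-coded ribosomal protein genes had a median of 0.31, with 74 of 81 above 0. With only the unmarked cells, 202 of 1736 genes were higher and 161 lower. Of the 303 higher genes 152, and of the 417 lower genes 27, met the 10% filter only in the library where they were higher and so had to differ. For this reason the counts and medians of the gene lists below describe the members in use and support nothing. Each list count stands beside the shares over all genes, 9.23% higher and 12.7% lower. Some lie near them, such as 2 of 22 lysosome genes higher.

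Classical monocyte genes were mostly within 2-fold between the libraries. Of 20 listed genes 19 were in use, with a median of 0.39, 3 at least 2-fold higher and 0 lower, beside -0.04, 9.23% and 12.7% for all genes, and 1 of the 3, Chil3, entered through Lipo-Clo alone. Clec4e, a lectin receptor for damaged cells and mycobacterial lipids, stood at 387 CPM in Lipo-Clo and 164 in Lipo-PBS (1.24, 0.51 to 2.05), and Hp, which binds free haemoglobin, at 512 and 251 CPM (1.03, 0.44 to 1.67). Chil3, a chitinase-like protein, rested on 31 and 3 UMIs (1.26, -0.42 to 3.61). Lyz2 had 5525 and 4222 CPM (0.39, 0.24 to 0.54), and Ifitm3, an antiviral membrane protein, 3370 and 2444 (0.46, 0.27 to 0.66). Plac8 did not differ beyond its interval, at 1245 and 1256 CPM (-0.01, -0.29 to 0.27). Fn1, fibronectin, was 423 and 609 CPM (-0.53, -0.94 to -0.09). Without the lymphoid or plasmacytoid-marked cells the list median was 0.19 and Clec4e 0.67, and with only the unmarked cells the median was 0.05, Clec4e 0.38 (-0.43 to 1.30) and Lyz2 -0.01.

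Transcripts better known from neutrophils summed to 7755 CPM in Lipo-Clo against 1411 in Lipo-PBS. Of 16 listed genes 8 were in use, 6 at least 2-fold higher in Lipo-Clo and 0 lower, beside 9.23% and 12.7% for all genes. The median was 1.93, and 3 of the 6, Lcn2, Ngp and Wfdc21, entered through Lipo-Clo alone. S100a8 and S100a9 form calprotectin, a calcium- and zinc-binding alarmin. S100a8 stood at 4595 CPM in Lipo-Clo and 1005 in Lipo-PBS (2.19, 1.91 to 2.49), and S100a9 at 2102 and 145 CPM (3.86, 3.13 to 4.70). The rule capped both genes, and with the cap at 2% the ratios were 1.09 and 1.48. Lcn2, which binds bacterial iron carriers, had 146 UMIs in 30 of 89 Lipo-Clo cells and 0 UMIs in 28 Lipo-PBS cells (exact upper limit of 12.3% for cells with a UMI), at least 11.3-fold higher (against the floor of 3 UMIs in that library). Of the Col1a1-high cells, 7.30% and 3.11% had an Lcn2 UMI. Wfdc21, a small whey acidic protein, had 81 and 0 UMIs (at least 6.25-fold). With only the unmarked cells S100a8 was 2.71 and S100a9 3.71.

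Cells that should lack these transcripts also held more of them in Lipo-Clo. In the Col1a1-high cells the list summed to 4685 and 2149 CPM, with S100a8 at 979 and 397 CPM and a UMI of it in 26.7% and 9.40% of cells, against 75.3% and 21.4% of monocytes. S100a9, for which a UMI was seen in 53.2% and 17.8% of them against 66.3% and 25% of monocytes, stood at 2466 and 1062 CPM in the Col1a1-high cells, so its level in the monocytes was below theirs in both libraries. The part of such transcripts in the difference between the monocytes was not tested. The proportions of the genes are given as a description. The rule capped S100a8 plus S100a9 in the monocytes, and the S100a8/S100a9-high cells were chosen by the same sum. In the Lipo-Clo monocytes 1938 of 2055 S100a8 UMIs lay in 21 cells, and the intervals do not cover the spread between cells. In Lipo-Clo, the monocytes had 2.19 S100a8 UMIs per S100a9 UMI (2.02 to 2.36), where the S100a8/S100a9-high cells had 0.465 (0.463 to 0.468) and the Col1a1-high cells 0.397 (0.389 to 0.406). Camp and Ngp, granule proteins of maturing neutrophils, were at 91.7 and 51.4 CPM in the Lipo-Clo monocytes, below the 509 and 306 CPM of the Col1a1-high cells. Per Camp UMI the monocytes had 50.1 S100a8 UMIs (36.8 to 70.1) and 3.56 Lcn2 UMIs (2.50 to 5.17), against 2.16 and 0.179 in the S100a8/S100a9-high cells. The Lipo-PBS monocytes, with 104 S100a8 and 15 S100a9 UMIs, had 6.93 per S100a9 UMI (4.02 to 12.8).

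The S100a8 signal came from few cells. The median was 1 UMI per cell in Lipo-Clo and 0 in Lipo-PBS, and the highest cells had 225 and 37. Cells with 20 or more S100a8 UMIs, a limit chosen after the values were seen, numbered 21 of 89 (23.6%, 15.2% to 33.8%) after clodronate and 3 of 28 (10.7%, 2.27% to 28.2%) after vehicle. The shares overlap in their intervals. In Lipo-Clo the 21 cells held 1938 of 2055 S100a8 UMIs and 128 of 146 Lcn2 UMIs. Camp stood at 90.8 CPM in them and 92.0 in the other 68 cells. Prtn3 (479 and 248 CPM), Elane (66.0 and 9.20, on 8 and 3 UMIs) and Ly6c2 (1040 and 736) were higher in the 21 cells. Ccr2 (190 and 454 CPM), Lyz2 (3996 and 6093) and Csf1r (on 4 and 34 UMIs) were lower. The rule capped Prtn3 and Elane and used Ly6c2 and Ccr2. No azurophil granule UMI was seen in 45 of 89 Lipo-Clo and 22 of 28 Lipo-PBS monocytes. Whether the 21 cells are nearer to granule-bearing precursors was not tested.

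**Figure D4:**
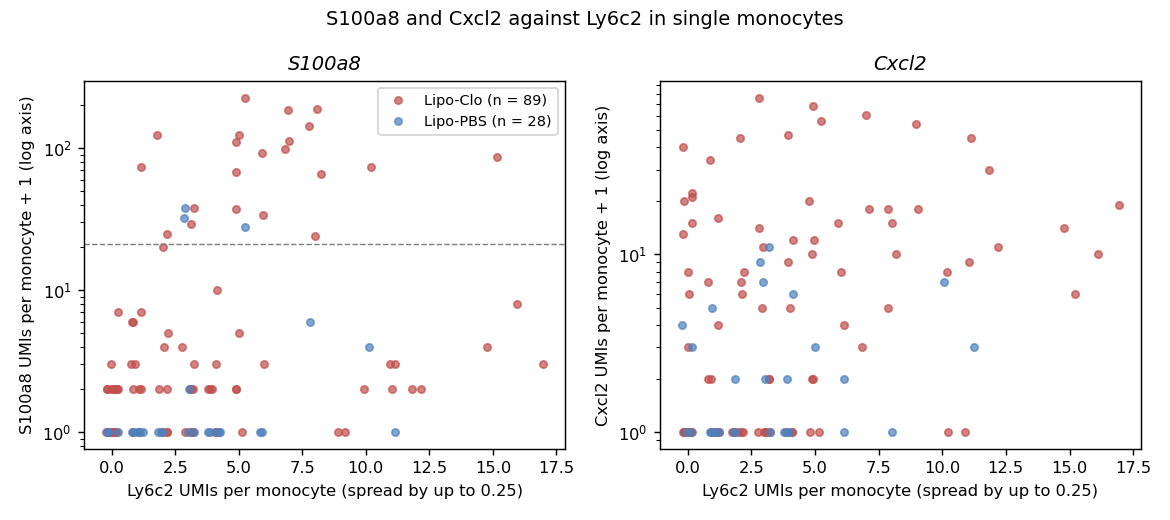
S100a8 (left) and Cxcl2 (right) UMIs per monocyte plus 1 (y axes, log scale) against Ly6c2 UMIs (x axes, points spread sideways by up to 0.25), for Lipo-Clo (n = 89) and Lipo-PBS (n = 28). In the left panel 21 Lipo-Clo and 3 Lipo-PBS cells lie at or above the dashed line at 20 UMIs, and in the right panel the Lipo-Clo cells reach 75 Cxcl2 UMIs and the Lipo-PBS cells 10.

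Chemokines differed in both directions. Of 16 listed genes 6 were in use, 2 at least 2-fold higher and 1 lower, with a median of -0.39 (0.06 under TMM factors). Cxcl2, which attracts neutrophils, stood at 2138 CPM in Lipo-Clo and 502 in Lipo-PBS (2.09, 1.69 to 2.52), with medians of 4 and 0.5 UMIs per cell. It was seen in 57 of 89 and 14 of 28 monocytes, and in 55.8% and 37.0% with cells thinned to 1500 UMIs. The Col1a1-high cells had 64.3 and 106 CPM and a UMI in 6.83% and 10.4%. In the C1q-high cells Cxcl2 was 6184 and 6351 CPM, so its level in monocytes was below theirs in both libraries. Other groups also had more Cxcl2 in Lipo-Clo, with 1661 and 1276 CPM in the S100a8/S100a9-high cells, 765 and 235 CPM in the MHC class II-high cells and 665 and 62.2 CPM in the azurophil granule-high cells, so the difference was shared with them. The monocyte ratio was 1.57 with only the unmarked cells and 1.21 with a minimum of 3 UMIs over the rule genes. Ccl2, the ligand of CCR2, had 331 and 135 CPM (1.29, 0.50 to 2.20), and -0.17 with the minimum of 3. Ccl4, which attracts lymphocytes and monocytes, was lower at 411 and 956 CPM (-1.22, -1.58 to -0.85), and 48.5% of its Lipo-PBS UMIs lay in 1 cell, without which the ratio was -0.57. Ccl3, Ccl6 and Ccl9 lay between -0.63 and -0.29, each with an interval that spans 0.

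Inflammatory cytokines and alarmins had 13 of 20 listed genes in use, with a median of 0.76. At least 2-fold higher were 4 and lower 1, beside 9.23% and 12.7% for all genes. Il1b, the interleukin 1β precursor, had 344 and 106 CPM (1.70, 0.82 to 2.73) and a UMI in 31 of 89 and 5 of 28 cells, against 1.96% and 2.93% of the Col1a1-high cells. With only the unmarked cells it was 0.57 (-0.43 to 1.75), and the list median 0.43. Nfkbia, the inhibitor of NF-κB, had 785 and 464 CPM (0.76, 0.32 to 1.23), and Cd14, the endotoxin co-receptor, 235 and 213 CPM (0.14, -0.53 to 0.88). Casp1, Osm and Ptgs2, 3 of the 4 higher genes, entered through Lipo-Clo alone, on 1 or 2 Lipo-PBS UMIs, and each interval spans 0. Il6, which entered through Lipo-PBS alone, was lower on 14 and 12 UMIs (-1.89), 83.3% of the latter in 1 cell, and 0.22 without the highest cell of each library. Interferon-stimulated genes had a median of 0.14 over 10 of 25 in use, with 1 higher and 2 lower, and Ifi27l2a at 1485 and 1043 CPM (0.51, 0.21 to 0.82).

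**Figure D5:**
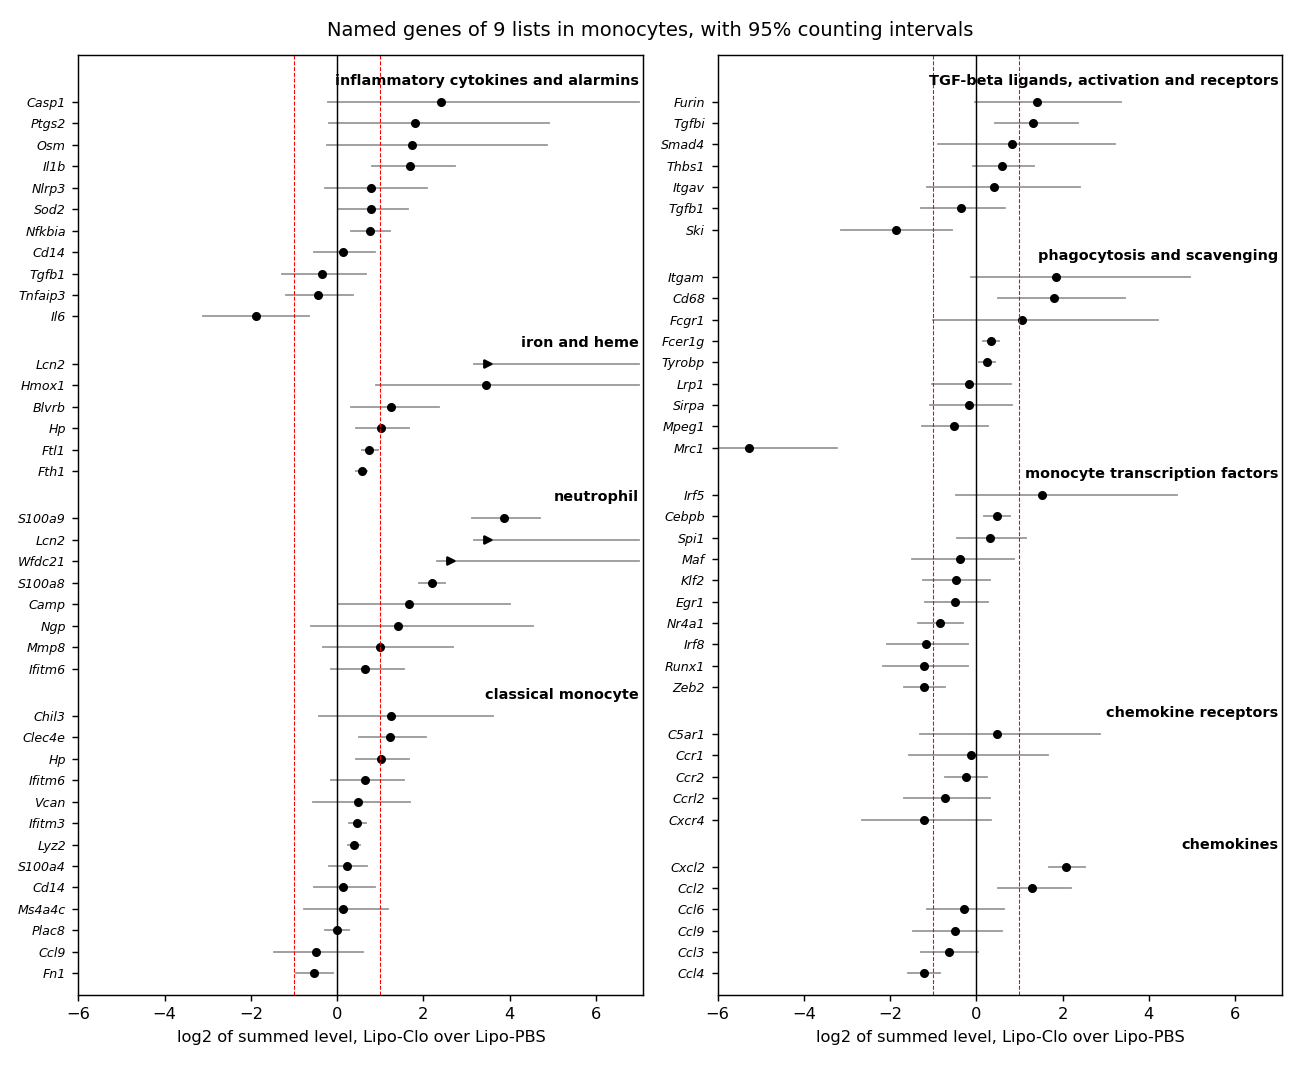
Log2 ratio of the summed level, Lipo-Clo over Lipo-PBS (x axis), for the named genes of 9 lists in monocytes, with exact 95% counting intervals (cut at the plot's edges), a line at 0 and dashed lines at 2-fold. Arrows mark lower bounds for genes with 0 UMIs in Lipo-PBS. S100a9, S100a8 and Cxcl2 lie clear of the 2-fold line on the right, and Mrc1, at -5.28 on 2 and 18 UMIs, on the left.

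Of 12 iron and heme handling genes 6 were in use, 4 of them past 2-fold higher in Lipo-Clo and 0 lower. For all genes the shares were 9.23% higher and 12.7% lower. The list median was 1.14, and 0.91 with only the unmarked cells. Lcn2 and Hmox1 entered through Lipo-Clo, where they are high, so these 2 had to differ. Fth1 and Ftl1, the heavy and light chains of the iron store ferritin, had 9067 against 6125 CPM (0.57, 0.44 to 0.69) and 4398 against 2618 CPM (0.75, 0.56 to 0.94). Hmox1, heme oxygenase, which breaks down heme, had 47 UMIs in 23 Lipo-Clo cells and 1 in Lipo-PBS (3.44, 0.89 to 8.78), with 34.0% of the UMIs in 1 Lipo-Clo cell, and 0.80 with only the unmarked cells, against the floor. Blvrb, biliverdin reductase B, had 230 and 96.6 CPM (1.25, 0.32 to 2.36), and Hp and Lcn2 are given above. Lcn2 is in the neutrophil list and Hp in the classical monocyte list too, so these lists are not separate. The erythroid list, which holds haemoglobin, summed to less in Lipo-Clo, at 41324 and 69909 CPM, with 48.7% of the Lipo-PBS Hbb-bs UMIs in 1 cell. The Col1a1-high cells, which should lack these transcripts, also had less in Lipo-Clo, at 16893 and 42708 CPM. Haemoglobin above 5% of UMIs marked 9 of 89 and 3 of 28 monocytes. The median per monocyte was only 0.162% and 0.262%, so the sums rest on few cells. A sum without the marked cells is not given here.

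Phagocytosis and scavenging genes had 14 of 23 in use, with a median of 0.07, 3 higher and 1 lower past 2-fold, but of these Fcgr1 and Itgam entered through Lipo-Clo alone and Mrc1 through Lipo-PBS alone. Cd68, a lysosomal glycoprotein of phagocytes, had 168 and 48.3 CPM (1.80, 0.51 to 3.46), and was seen in 43 of 89 and 5 of 28 cells. The signalling adaptors Fcer1g and Tyrobp, at 3316 and 2618 and at 3249 and 2734 CPM, differed by 0.34 and 0.25. Mrc1, the mannose receptor CD206, had 2 and 18 UMIs, and 1 Lipo-PBS cell held 83.3% of the 18. Outside this list, Trem2, a lipid receptor of macrophages, had 29 and 0 UMIs (at least 2.24-fold), and Ms4a6d 51 and 1 (3.56, 1.02 to 8.89). Both entered through Lipo-Clo alone and so had to differ. Resident macrophage markers summed to 865 and 1072 CPM, led by Apoe at 456 and 531 CPM (-0.22, and -0.93, -1.42 to -0.42, with only the unmarked cells), with Folr2, Lyve1, Cd163 and Cbr2 at 0. Lysosome genes had a median of 0.18 over 22 of 24 in use, 2 past 2-fold each way. The proteases Ctsc, at 508 and 222 CPM (1.19, 0.57 to 1.88), and Ctsd, at 150 and 58.0 CPM (1.37, 0.17 to 2.87), were higher and Asah1, acid ceramidase, at 87.2 and 222 CPM (-1.35, -2.13 to -0.54), was lower.

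Among monocyte transcription factors 14 of 16 were in use, 2 higher and 3 lower past 2-fold, with a median of -0.14 (0.31 under TMM factors, and 0.16 without the lymphoid or plasmacytoid-marked cells). Spi1 had 203 and 164 CPM (0.31, -0.45 to 1.15) and Cebpb, needed for the survival of Ly6C-low monocytes, 1465 and 1053 (0.48, 0.18 to 0.78). Zeb2, a repressor that holds myeloid identity, had 250 and 580 CPM (-1.21, -1.68 to -0.73), and was seen in 60 of 89 and 22 of 28 cells. Irf8, which directs progenitors to the monocyte and dendritic lineages, had 69.3 and 155 CPM (-1.16, -2.07 to -0.19), and Runx1 62.6 and 145 (-1.21, -2.16 to -0.20). Nr4a1, on which nonclassical monocytes depend, had 248 and 444 CPM (-0.84, -1.35 to -0.31), and -1.72 with only the unmarked cells. In the filtered cells outside the monocytes Zeb2 and Nr4a1 were -0.44 and -0.33.

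Receptors for growth factors and chemokines were read at low counts, with wide intervals. Of 8 growth factor receptors 3 were in use, with a median of 0.27, 0 higher and 1 lower past 2-fold. Csf1r was 0.55 (-0.70 to 2.08), and Csf2ra, the GM-CSF receptor α chain, was lower on 15 and 10 UMIs (-1.53, -2.78 to -0.21). Of 14 chemokine receptors 5 were in use, 0 higher and 1 lower past 2-fold. Ccr2 is a gene of the rule, and the other 4 ranged from -1.22 to 0.47, the lowest being Cxcr4, the receptor for CXCL12, on 13 and 7 UMIs, with an interval that spans 0. S1pr5 and Ccr7 were at 0. Adhesion and migration genes had a median of -0.11 over 12 of 16 in use (0.34 under TMM factors), with Itgb1, the integrin β1 chain, at 190 and 348 CPM (-0.87, -1.45 to -0.27) and Itga4, its α4 partner, at 60.4 and 135 CPM (-1.16, -2.15 to -0.12). Itgam, the CD11b chain, which entered through Lipo-Clo alone, had 31 and 2 UMIs (1.84, -0.13 to 4.95).

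The study was concerned with TGF-β from macrophages. Of the genes for TGF-β ligands, activation and receptors 7 of 18 were in use in monocytes, with a median of 0.59, 2 higher and 1 lower past 2-fold. Tgfb1, the ligand, had 98.4 CPM in Lipo-Clo and 126 in Lipo-PBS (-0.35, -1.27 to 0.66, and 0.10 under TMM factors), on 44 and 13 UMIs. The interval spans 0 and a 2-fold lower level, so a difference was not detectable at this depth, and with only the unmarked cells the ratio was -1.30. Tgfbi, a matrix protein induced by TGF-β, had 266 and 106 CPM (1.32, 0.43 to 2.36) and a UMI in 52 of 89 and 7 of 28 cells. In the C1q-high cells Tgfbi was also higher in Lipo-Clo, at 280 and 153 CPM, and Tgfb1 stood at 221 and 189 CPM. The Lipo-Clo Col1a1-high cells had Tgfbi at 131 CPM (a UMI in 30.3% of cells) and Tgfb1 at 199 CPM (45.6%). Thbs1, thrombospondin 1, which releases TGF-β from its latent form, had 306 and 203 CPM (0.59, -0.07 to 1.33), and Furin, which cleaves the precursor, 103 and 38.6 CPM (1.41, -0.04 to 3.35). Coagulation and matrix genes, F13a1 and Fn1 among them, had a median of 0.47 over 9 of 16 in use. The median was 0.51 without F13a1, which chose the cells, and -0.17 without called doublets, so its sign turned there. In the main setting 1 gene was higher past 2-fold, and the list summed to 1952 and 1942 CPM.

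Some of the monocytes expressed cell cycle genes. Of 24 listed genes 19 were in use, with a median of 0.24 (-0.09 with only the unmarked cells), 2 higher, of which Mcm5 entered through Lipo-Clo alone, and 0 lower past 2-fold. Ube2c, which drives exit from mitosis, had 693 and 213 CPM (1.71, 1.08 to 2.40), Birc5, survivin, 445 and 261 CPM (0.77, 0.19 to 1.41), and H2az1, a histone variant that led the list, 5487 and 3681 CPM (0.58, 0.42 to 0.74). Mki67 and Top2a, proliferation genes, had 91.7 and 155 CPM (-0.75, -1.62 to 0.18) and 112 and 145 CPM (-0.37, -1.23 to 0.56). At least 2 UMIs over both genes were found in 21 of 89 (23.6%) and 5 of 28 (17.9%) cells, against 5.64% and 3.77% of the Col1a1-high cells and 52.2% and 29.6% of the azurophil granule-high cells (median depths of 11012 and 6952 UMIs). With cells thinned to 1500 UMIs these were 3 of 86 (3.49%) and 5 of 27 (18.5%), with 2.02% and 1.39% of the Col1a1-high cells and 4.46% and 3.85% of the azurophil granule-high cells. The order thus turned with depth. Glycolysis genes had a median of 0.38 over 11 of 17 in use, with Gapdh at 1829 and 1353 CPM (0.44, 0.18 to 0.70) and Pkm, pyruvate kinase, at 373 and 135 (1.47, 0.68 to 2.37). Immediate early and dissociation genes had a median of -0.11 over 17 of 19 in use (0.34 under TMM factors), with sums of 6229.6 and 6376 CPM.

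The 10 highest ratios, beside S100a9, Lcn2, Wfdc21 and Ms4a6d, held genes whose signal lay in few cells. Spp1, osteopontin, was 5.27, but 92.7% of its 668 Lipo-Clo UMIs were in 1 cell, and it was 2.50 without the highest cell of each library and -0.0031 with only the unmarked cells. Amtn, an enamel protein, held 84.7% of 144 UMIs in 1 cell, and Timp1, an inhibitor of matrix proteases, 76.2% of 105. Ibsp and Bglap2, bone matrix genes, rested on 208 and 97 Lipo-Clo UMIs and 4 and 3 Lipo-PBS UMIs, and the Col1a1-high cells had Ibsp at 3320 and 3429 CPM. Saa3, an acute phase protein, had 130 UMIs in 14 Lipo-Clo cells and 0 in Lipo-PBS (at least 10.03-fold), 46.9% of them in 1 cell. It was seen in 15.7% and 0% of monocytes, so it entered through Lipo-Clo alone and had to differ.

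The 10 lowest ratios, with mitochondrial and haemoglobin genes left out, held genes with most of their signal in few cells and genes spread over many. Acta2, Tagln, Plac9, Igfbp7 and Fstl1, genes of contractile and fibroblast-like cells, ranged from -3.42 to -1.91 with 28.8% to 70.6% of the Lipo-PBS UMIs in 1 cell, and Ly6d, a lymphoid surface antigen, was -2.18 with 41.3% in 1 cell. Arhgap15, Dock10, Dennd4a and Spag9, regulators of Rac, of small GTPases, of vesicle traffic and of JNK signalling, were spread over 12 to 19 of 28 Lipo-PBS cells and 18 to 24 of 89 Lipo-Clo cells. Arhgap15 had 69.3 and 386 CPM (-2.48, -3.20 to -1.77), Dennd4a 55.9 and 280 (-2.33, -3.16 to -1.50), Dock10 62.6 and 261 (-2.06, -2.87 to -1.24) and Spag9 62.6 and 222 (-1.83, -2.68 to -0.97). With only the unmarked cells these 4 were -2.33, -3.11, -2.73 and -1.94. In the filtered cells outside the monocytes they were -0.25, -0.52, -0.27 and -0.54, the same sign at a smaller size. Cd3g (6 and 15 UMIs, in use through Lipo-PBS alone), Ebf1 (16 and 29) and Ighm (14 and 15) were also lower, and in the Col1a1-high cells Ebf1 stood at 155 and 283 CPM. Cd74, the MHC class II chaperone, stood at 297 and 551 CPM (-0.89, -1.35 to -0.41). With only the unmarked cells Cd74 was 121 and 597 CPM (-2.30, -3.14 to -1.45). It led the MHC class II presentation list, with 3 of 8 genes in use, 0 higher and 1 lower past 2-fold. The lower gene, H2-Eb1, entered through Lipo-PBS alone and was capped by the rule. Granulocyte-monocyte progenitor genes had 4 of 12 in use and a median of -0.03, with sums of 698 and 783 CPM led by Prtn3, which the rule capped.

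Within the Lipo-Clo monocytes, 18 cells had no Ly6c2 UMI and 71 had at least 1. Ly6c2 is a gene of the rule, so cells without it entered on Ccr2, F13a1 and Ms4a6c alone. The Lipo-Clo C1q-high cells also carried Ms4a6c and F13a1, at 441 and 182 CPM. The rule capped S100a8 too, so the values of this split are a description and support nothing. Apoe was 1358 CPM (1106 to 1650) without Ly6c2 and 276 (225 to 335) with it, and the resident macrophage list 2353 and 569 CPM. Cd74 was 995 and 158 CPM. S100a8 was 215 CPM (123 to 349) and 5469 (5234 to 5711), Lcn2 53.8 and 381 CPM, and the cell cycle list 5379 and 13104 CPM. Lyz2, at 5782 and 5474 CPM, did not differ beyond its interval. The median depths were 3390 and 4531 UMIs. In Lipo-PBS 4 cells lacked Ly6c2 and 24 had it, and S100a8 was 0 UMIs in the former and 104 in the latter. Apoe was 2966 and 362 CPM there. Lyz2 was 9490 CPM (7308 to 12118) without Ly6c2 and 3855 (3474 to 4267) with it. The former rests on 64 UMIs, seen in only 50% of the 4 cells, and its interval does not cover the spread between cells. The chemokine list was 11714 and 1581 CPM in Lipo-PBS, with 62 of the 79 UMIs without Ly6c2 in 1 cell, and 3066 and 3591 CPM in Lipo-Clo.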

How the data were processed

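For each library the authors deposited a matrix of raw UMI counts (34285 genes by called cells), not normalized. The file headers name Cell Ranger 8.0.0, while the submitters' processing notes list Cell Ranger 3.1.0, Seurat 3.1.1 and GRCm39. The tissue had been digested with Dispase and collagenase I. No coordinate was joined to a count here, since the annotation at hand is GRCm38.

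Cells were chosen by the stated limits. UMIs were summed over the monocytes of a library and scaled to CPM with all genes. Shares carry Clopper-Pearson intervals, CPM exact Poisson intervals, and ratios exact conditional intervals for 2 Poisson counts, all at 95%. A gene at 0 UMIs was set to a floor of 3 per library. Tools were Python 3.11.15, scanpy 1.11.5, scipy 1.17.1 and numpy 2.4.6, with edgeR 4.0.16 and DESeq2 1.42.0 for scaling factors alone. Scrublet's own threshold called 0 and 1 cells, so the highest scores, 0.8% per 1000 cells, were taken as doublets (632 and 633, with 9 and 1 monocytes) and kept in the main values.

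Named genes are the rule genes, at most 6 per list by UMIs plus those past 2-fold, and the 10 largest ratios each way among genes with 50 or more UMIs, mitochondrial and haemoglobin genes left out, with 1 listed gene not reported here. The monocytes, lists and limits were chosen with earlier results of these data known. Splits by S100a8 and the marks of other lineages were added after seeing the values.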

Additional observations from a re-analysis of the deposited data

How the results depend on the processing

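The monocyte share stayed higher in Lipo-Clo under each of the 15 alternatives, but its log2 ratio of 1.67 became 0.89 among cells with a Ptprc UMI and 0.89 among the 5 myeloid groups. The counts of higher and lower genes, 303 and 417, were 658 and 166 under TMM factors, 102 and 53 with 50 UMIs required, and 596 and 831 at 1.5-fold. With a minimum of 6 UMIs over the rule genes 272 were lower, and with only the unmarked cells 161. Leaving out every cell with 3 or more UMIs of another lineage kept 15 and 3 cells, with 60 genes higher and 24 lower, and there Clec4e (-0.44), Ccl4 (2.40), Irf8 (0.49) and Ube2c (-3.51) turned. Ccl2 turned with a minimum of 3 UMIs (-0.17), Il6 with a minimum of 6 (0.68) and without the highest cell of each library (0.22), and Spp1 (-0.0031) and Odam (-1.04) with only the unmarked cells. The cause of these changes was not tested. Several of these settings keep fewer cells or genes by construction, while a minimum of 3 UMIs keeps more cells. Thinning gave 766 and 850 genes per cell, and 67.4% of Lipo-Clo monocytes had 2 or more Ly6c2 UMIs. The depth of 28 Lipo-PBS cells limits every ratio. No paired analysis was possible because there is a single library for clodronate and a single one for vehicle.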
